A study of Homo sapiens with 3 samples.

Results

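N6-methyladenosine regions of nuclear RNA sometimes lay in very close rows on 1 strand, and these rows are described here. Same-strand regions were joined where the start of the next lay at most 500 nt after the end of the previous one, and a joined row of 6 or more regions was kept as a tight cluster. Of the 41836 regions in the list, 467 (1.12%) fell into 69 such clusters. A further 10200 regions lay in 4395 smaller rows of 2 to 5, and 31169 had no same-strand neighbour within 500 nt. The clusters were selected on the deposited positions themselves, so their number, length and spacing are descriptions of the rule's outcome and were not tested.

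The cells were MDA-MB-231, a long-established line from a human breast cancer, and the labels name no treatment or genotype. A rabbit antibody against m6A was used on nuclear RNA for 2 libraries and rabbit IgG for 1, and the outcome was deposited as a single list of positions in hg19. The list has no value for any library and the same score for every region. For every cluster, enrichment over IgG, depth and agreement of the m6A libraries are therefore unknown, and a width is a single deposited value without an error.

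m6A is the methyl mark that the METTL3 and METTL14 complex writes on adenosines of RNA while it is made. In spliced messenger RNA it is known for dense placement in unusually long internal exons, in last exons and around stop codons, and splice junctions keep it away from short exons. The mark is also known on long noncoding RNAs and on primary microRNA transcripts, where it helps the microprocessor find its hairpins. Nuclear RNA holds such unspliced and noncoding transcripts beside spliced ones.

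A tight cluster was about as long as a large exon, a length that follows largely from the limits of the rule and moved with them. The 69 clusters spanned 1243 to 3792 nt, with a median of 1987 nt and quartiles of 1752 and 2431 nt. Regions filled a median of 27.1% of the span, from 14.05 to 66.3%, and covered 43.5 kb of 147 kb in all. Clusters of 6 regions were the most frequent (39), followed by 18 of 7 regions. There were 4 clusters of 8 regions, 6 of 9, and 1 each of 10 and 11. The minus strand held 40 clusters and the plus strand 29, so 58.0% of clusters were on the minus strand (95% Wilson interval 46.2 to 68.9%, counting error only). Of the regions, 58.7% were minus inside clusters and 57.4% outside, so the share inside was near that of the rest of the list. The regions of a cluster share its strand by the rule.

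**Figure D1:**
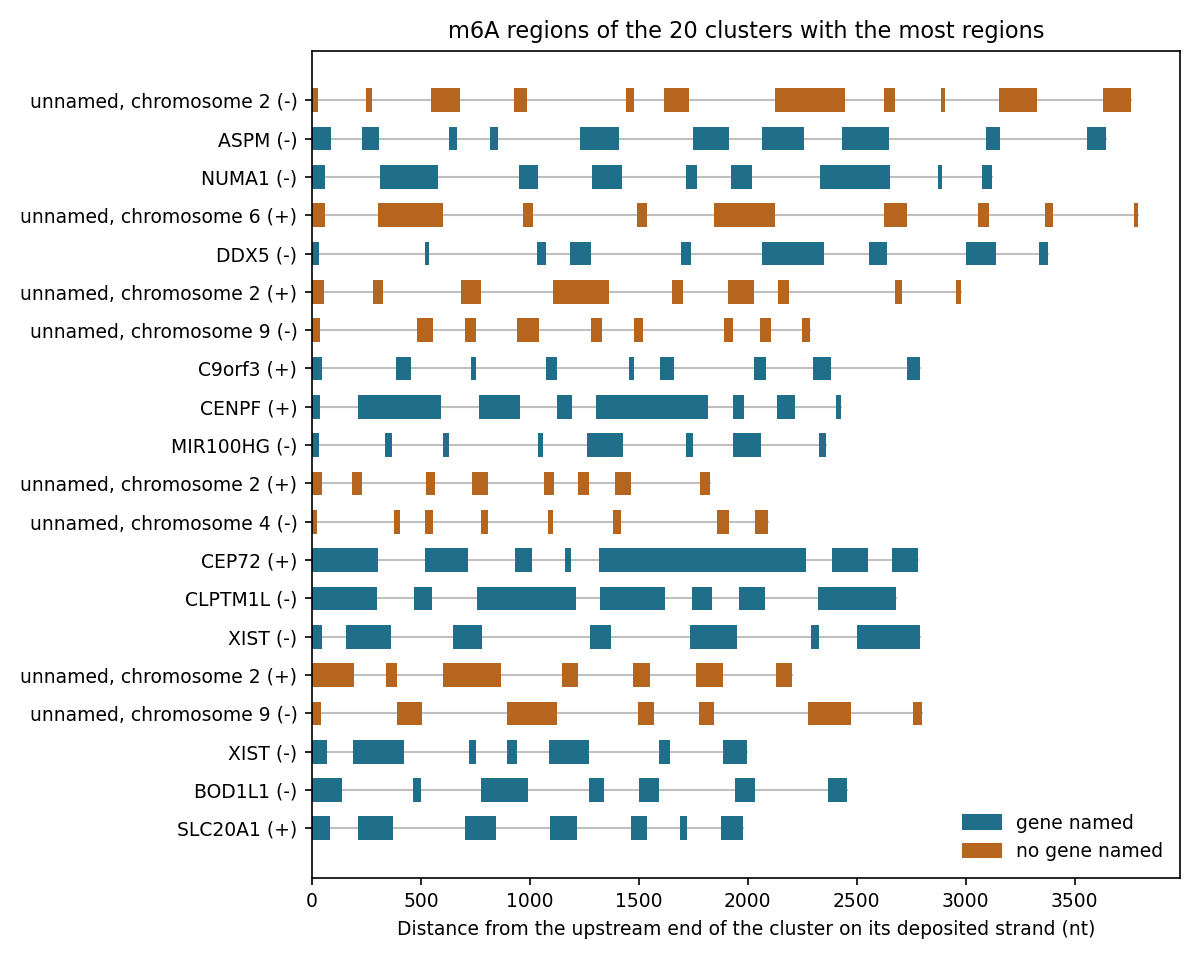
Each row shows the m6A regions (bars) of 1 cluster on its deposited strand, from the upstream end at 0 nt, for the 20 clusters with the most regions, in order of that number. Ties were ordered by covered nt. Regions alternate with gaps of up to 500 nt along spans of 1824 to 3792 nt, and the CEP72 row holds the widest bar, of 949 nt.

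Pooled over all clusters, the regions were wider than the rest of the list, but not at every cluster size. Inside, the median was 58 nt (quartiles 42 and 117 nt), and outside it was 45 nt (32 and 53 nt). Of the clustered regions, 31.3% (146 of 467) exceeded 100 nt, and of the others 10.0%. The share was 16.9% in rows of 2 to 5 and 7.80% without a neighbour. It rose with size among these smaller rows, with 14.4%, 20.7%, 22.2% and 26.2% in rows of 2, 3, 4 and 5. Rows of 5 had a median width of 53 nt, the same as clusters of 6. Among the clusters, those of 6 and 7 regions had 30.3% and 39.7% over 100 nt, with medians of 53 and 76 nt. The 32 regions of clusters of 8 had 15.6% and a median of 45 nt. The 54 regions of clusters of 9 had 20.4% and 52 nt. In the share over 100 nt, the clusters of 8 and of 9 thus lay below rows of 3, 4 and 5. Their medians were also below that of rows of 5. Pooled again, the share was higher inside clusters on 20 of the 22 chromosomes that had one, by 21.0 percentage points on average ± 15.7 (SD, n = 22 chromosomes). Several of these chromosomes held only 1 cluster, so their share rests on 1 locus. Chromosomes 12 and 14, with 1 cluster of 6 regions each, had 0% over 100 nt inside. The smallest same-strand gap in the list was 101 nt, and "merged" is part of each region's name; whether nearer regions had been united was not tested.

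**Figure D2:**
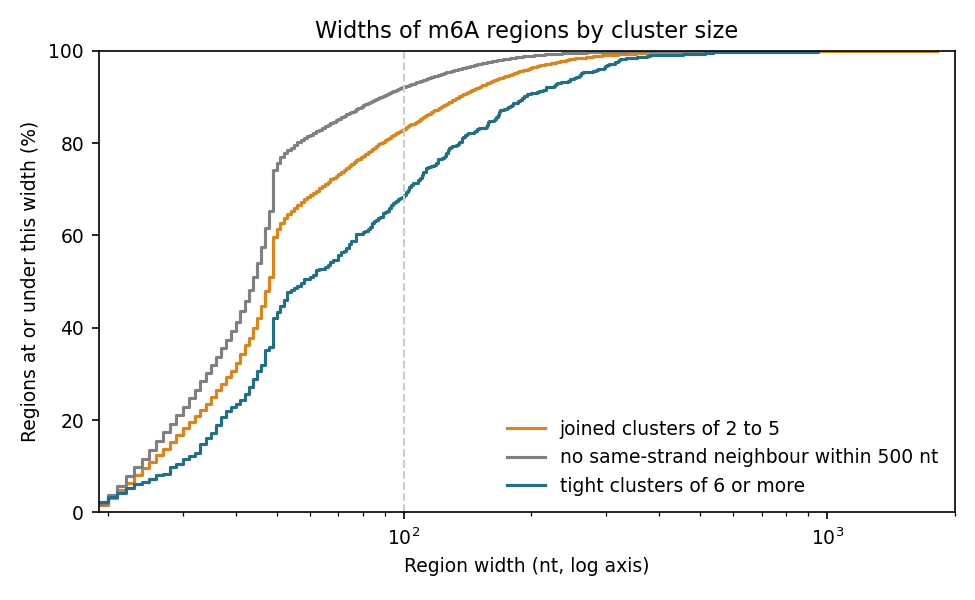
Cumulative share of regions (%) against width (nt, log axis) for tight clusters, smaller rows and regions without a neighbour within 500 nt; the dashed line marks 100 nt. At 100 nt the curve of the tight clusters is the lowest, with 31.3% of its regions still wider, against 16.9% and 7.80%.

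Within a cluster the widest region was usually neither first nor last. It lay inside the row 55 times, at the downstream end 10 times and at the upstream end 6 times, with ties counted for each region. The median width was 49 nt for first, 63 nt for inner and 60 nt for last regions. Inner positions are the most numerous in any row, so these counts show no preference on their own. In 26 clusters at least 3 regions exceeded 100 nt, and in 10 clusters none did. The gaps inside clusters had a median of 244 nt, and 36.7% were at most 200 nt, close to the 258 nt and 34.4% of smaller rows.

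Some clusters owe their place to the limits of the rule. In 7 clusters the next same-strand region lay just beyond the joining distance, at most 600 nt away, the nearest being 509 nt upstream of the FAM129B cluster. The longest joined gap was exactly 500 nt, in a plus-strand cluster of chromosome 6. The 84 rows of 5 regions just outside the limit spanned a median of 1502 nt with 25.9% covered, and the 39 clusters of 6 just inside it spanned 1794 nt with 27.1% covered.

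Gene names were given to 52 clusters (343 regions) at 50 genes. They rest on general knowledge of where these genes lie in hg19 and not on an annotation of that build, and 17 clusters (124 regions) were left without a name. In GENCODE release 29, all 52 stood on the chromosome and strand of the named gene, and on 11 of 11 chromosomes with at least 2 named genes the genes had the order of the clusters. Because chromosome and strand were in view when the names were given, this is no independent check. Exons, introns and untranslated parts could not be assigned to single regions, and no region sequence was read, since only a reference in GRCh38 was used.

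Genes of cell division and genome maintenance held 7 of the 69 clusters, with 54 regions. Of these 7 clusters, 5 were among the 20 with the most regions, beside 8 unnamed ones. The 18 clusters of 7 regions were ordered by covered nt, so the limit of 20 falls among ties. MDC1, also with 7 regions, fell outside it by that order. The gene groups used from here on were formed after the clusters had been named, and whether any group is overrepresented was not tested. ASPM, a spindle pole protein, held the largest named cluster, with 10 regions (minus strand, chr1:197070232-197073874). From upstream to downstream their widths were 87, 77, 38, 36, 181, 167, 192, 216, 62 and 88 nt, so the wide regions stood in a run from the fifth to the eighth place. NUMA1, which organises the spindle poles, held 9 regions (minus strand, chr11:71724162-71727283), of 62, 265, 85, 138, 52, 97, 322, 22 and 50 nt. CENPF, a kinetochore protein, held 8 (plus strand, chr1:214818293-214820719), of 36, 381, 190, 70, 513, 50, 84 and 23 nt. The CENPF regions filled 55.5% of the 2427 nt, with gaps of at most 187 nt, whereas those of ASPM and NUMA1 filled 31.4% and 35.0%.

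MKI67, the proliferation antigen Ki-67 that coats mitotic chromosomes, held 6 regions at chr10:129904901-129907383, of 108, 70, 84, 137, 180 and 52 nt. BOD1L1, which protects stalled replication forks, held 7 at chr4:13601774-13604228, of 39 to 216 nt. MDC1, a scaffold of the DNA damage response, held 7 at chr6:30671214-30673836, of 21 to 315 nt. These 3 clusters were alike in cover, at 25.4%, 29.7% and 26.3%.

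CEP72, a centrosome protein, carried the most completely filled cluster of all. Its 7 plus-strand regions at chr5:648670-651451 measured 305, 200, 77, 29, 949, 165 and 120 nt and filled 66.3% of the span. The region of 949 nt was itself wider than the longest CEP72 exon in GENCODE (566 nt), the only such case among the 343 regions of named clusters. It therefore extends past any single annotated exon of that gene.

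Genes of RNA binding and splicing held 8 clusters with 52 regions, and their median region width of 48.5 nt was the lowest of the named groups, just under the 49 nt of translation genes. DDX5, an RNA helicase of splicing and microRNA processing, held 9 minus-strand regions at chr17:62498292-62501669. They measured 34, 19, 44, 100, 47, 284, 80, 137 and 43 nt, and no further same-strand region followed for 31.9 kb upstream. HNRNPA1 and HNRNPH3, heterogeneous nuclear ribonucleoproteins, each held 6 plus-strand regions, in 1717 nt of chromosome 12 from 54674703 and in 1562 nt of chromosome 10 from 70091923. The HNRNPA1 regions were narrow (34, 45, 31, 98, 96 and 24 nt) and the HNRNPH3 regions wider (113, 40, 105, 105, 36 and 127 nt).

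SON and SRRM2 encode large scaffold proteins of nuclear speckles, the bodies that store splicing factors. SON held 6 regions of 103, 77, 157, 111, 43 and 129 nt at chr21:34922505-34925044. SRRM2 held 6 of 262, 30, 119, 74, 50 and 36 nt at chr16:2805962-2807948. SPEN, a transcriptional corepressor that binds RNA, held 6 regions at chr1:16256082-16258268 that filled 18.7% of the span. PHF3, which docks on RNA polymerase II, held 7 regions in 1634 nt of chromosome 6 from 64421231. DDX24, a helicase, held the cluster with the least covered sequence, 251 nt in 6 regions at chr14:94521680-94522943.

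The 4 clusters at translation genes were short and evenly sized. RPL10A, a protein of the large ribosomal subunit, held 6 plus-strand regions of 164, 41, 20, 89, 72 and 42 nt at chr6:35436602-35438395. RPL10 and RPL12, also of the large subunit, held 6 each, at chrX:153627696-153629255 (23 to 167 nt) and at chr9:130211028-130212712 (26 to 93 nt). EIF4G2, an initiation factor used outside the usual cap-dependent route, held 6 of 217, 49, 49, 49, 206 and 86 nt at chr11:10824591-10826469. The span of the RPL10A cluster, gaps included, equalled 75.4% of the length that GENCODE gives for the whole gene, and that of the RPL12 cluster 45.2%. The regions themselves covered 428 nt at RPL10A and 270 nt at RPL12. Ribosomal protein and HNRNP genes have many near-identical processed copies in the genome, and how the authors placed reads shared with such copies is not given in the sources used here.

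Genes of the cytoskeleton and of the extracellular matrix held 8 clusters with 50 regions, of which 40.0% were over 100 nt. FLNA, the actin crosslinker filamin A, held 6 regions of 190, 226, 38, 323, 36 and 124 nt that filled 49.03% of 1911 nt on chromosome X from 153587151. DST and PLEC are giant linkers between filament systems. The DST cluster had 7 regions at chr6:56468090-56470215, of 42 to 157 nt, and the PLEC cluster 6 at chr8:144989394-144991213, of 19 to 146 nt. IQGAP1, an actin scaffold, held 7 regions of similar width (149, 85, 61, 95, 120, 101 and 99 nt) at chr15:91043256-91045112.

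The laminin chain genes LAMB2 and LAMA5, whose products build basement membranes, held 6 regions each, in 2440 nt of chromosome 3 from 49158577 and in 1528 nt of chromosome 20 from 60885308. The widest region measured 315 nt at LAMB2 and 111 nt at LAMA5. TIMP3, an inhibitor of matrix metalloproteinases, held 6 regions of 53, 159, 139, 41, 73 and 121 nt at chr22:33256984-33258749. SH3PXD2A, a scaffold of invasive podosomes, held the sparsest cluster of this group, with 15.2% of 2252 nt covered on chromosome 10 from 105360754.

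Membrane and signalling genes held 11 clusters at 10 genes. EGFR, the epidermal growth factor receptor, held 6 regions of 47, 67, 53, 36, 376 and 74 nt at chr7:55274352-55275987. ERRFI1, a feedback inhibitor of EGFR, held 6 of 51, 49, 335, 25, 51 and 252 nt at chr1:8072246-8074254. The EGFR region of 376 nt made up most of the 653 nt covered there, whereas at ERRFI1 a pair of wide regions stood apart. SLC20A1, a phosphate transporter, was the only coding gene with 2 clusters, of 7 regions at chr2:113405742-113407717 and of 6 from 113414254 to 113415588. Their widths ran from 33 to 163 nt and from 19 to 109 nt.

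CLPTM1L, a membrane protein that moves glycolipids in the endoplasmic reticulum, had the next most completely filled cluster after CEP72. Its 7 regions at chr5:1326429-1329108 measured 297, 84, 457, 299, 92, 120 and 356 nt and filled 63.6%. CD59, which blocks the complement attack complex, held 7 regions on chromosome 11 from 33729566, and FLOT1, a lipid raft protein, 7 on chromosome 6 from 30708020. The CD59 regions ran from 19 to 186 nt and the FLOT1 regions from 20 to 113 nt. GOLGA4, a Golgi tether with a long coiled coil, held 6 regions on chromosome 3 from 37365292, of which 3 in a row measured 260, 244 and 181 nt. EXT1, a heparan sulfate polymerase, had 1 cluster of 6 regions at chr8:119068532-119070433, although the row joined at 10 kb around it held 254 regions. Its regions measured 89, 49, 134, 49, 21 and 65 nt. SLC25A37, an iron importer of mitochondria, held 6 regions in 2281 nt of chromosome 8 from 23428414.

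The other 7 coding clusters stood at C9orf3, FAM129B, TMEM242, PPP1R18, MORF4L2, WDR26 and PPP6R2. C9orf3 (now AOPEP, an aminopeptidase) held 9 narrow regions at chr9:97767446-97770233, of 47, 67, 22, 49, 21, 66, 55, 83 and 56 nt, with 16.7% covered. PPP1R18, a phosphatase partner that binds actin, held 6 regions in 2431 nt of chromosome 6 from 30651772, with 31.3% covered. WDR26, a ubiquitin ligase subunit, held 6 in 1504 nt of chromosome 1 from 224620010, none over 68 nt. PPP6R2, a phosphatase regulator, held 6 in 1861 nt of chromosome 22 from 50783051, with 15.0% covered, the lowest share among the named clusters. FAM129B (now NIBAN2), TMEM242 and MORF4L2 held 7, 7 and 6 regions with 27.4%, 32.0% and 23.9% covered.

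Long noncoding RNAs held 7 clusters with 46 regions. XIST, the RNA that coats an inactive X chromosome, had 2 clusters of 7 regions on the minus strand of chromosome X. The first in genome order, from 73043147 to 73045935, had widths of 47, 208, 135, 92, 213, 35 and 287 nt. The other, from 73061315 to 73063312, had widths of 68, 235, 33, 49, 186, 49 and 113 nt. Both filled a similar share, 36.5% and 36.7%, and belonged to 1 row of 28 regions joined at 10 kb. NEAT1, the scaffold RNA of paraspeckles, held 6 regions of 28, 188, 31, 158, 30 and 48 nt (plus strand, chr11:65199729-65201589).

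CYTOR and MIR4435-2HG are near-identical copies of 1 noncoding gene on chromosome 2, so reads could be shared between them. CYTOR held 6 plus-strand regions of 110, 135, 126, 39, 44 and 538 nt from 87773911 to 87776554. MIR4435-2HG held 6 minus-strand regions of 52, 83, 62, 49, 100 and 165 nt from 112248318 to 112250090. MIR100HG, host of a microRNA cluster, held 8 regions of 32, 36, 28, 22, 168, 34, 128 and 32 nt at chr11:122017602-122019960. Its median width of 33 nt was the next lowest of all after PPP6R2 (31 nt).

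The shortest cluster of all lay at the primary transcript of miR-221 and miR-222, named here by its host MIR222HG. Its 6 minus-strand regions of 22, 58, 63, 43, 49 and 102 nt stood between 45605167 and 45606409 on chromosome X. The mature products that Drosha and Dicer cut from this transcript share a seed, the bases 2 to 8 that pair with targets. The sequences are shown with that seed in capitals because they identify the RNA at which these regions lie; they come from RefSeq (GRCh38.p14), in which both were matched, and no region sequence is shown.
hsa-miR-221-3p: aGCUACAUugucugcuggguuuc
hsa-miR-222-3p: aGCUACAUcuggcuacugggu
In RefSeq the stretch from the first base of one hairpin to the last base of the other measures 968 nt, less than the 1243 nt of the cluster. Whether a region covers a hairpin was not tested, because the positions are in different builds.

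Of the gene lists used here, chromatin and scaffold genes with long exons held a cluster at 6 of 25 genes (BOD1L1, DST, MKI67, PLEC, SON and SRRM2). Nuclear long noncoding RNAs held clusters at 2 of 10 (NEAT1 and XIST). No cluster was assigned to any of 8 AP-1 transcription factor genes, 6 YAP or TGF-beta induced genes or 8 housekeeping genes such as ACTB and GAPDH. Over all 19969 coding genes of GENCODE, 0.220% had a named cluster, so lists of this size would hold none at the overall share, and nothing is read from these zeros. The lists were made with earlier results of these data known. The ribosomal clusters named above were not in the housekeeping list. The 17 unnamed clusters were not compared with these lists.

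The likeness to exons could be examined only through lengths, which do not need a shared build. The span was no longer than the longest exon of the gene in 39 of the 52 named clusters. This allows a place within 1 exon and does not show it. In 13 clusters (25%) the span was longer than any exon of the gene in GENCODE, so a single annotated exon cannot hold them. With the smaller GENCODE basic set it was 17 clusters (32.7%), the 4 more being at SLC20A1 (the cluster of 6 regions), RPL12, HNRNPH3 and EIF4G2. The 13 clusters of the comprehensive set stood at CEP72, RPL10A, LAMB2, LAMA5, FLOT1, DDX5, PPP6R2, CLPTM1L, C9orf3, SLC20A1 (the cluster of 7 regions), MORF4L2, FLNA and MDC1. The ratio of span to longest exon was highest at CEP72 (4.92) and RPL10A (3.08) and lowest at MDC1 (1.06).

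At 4 of these genes, CEP72, FLOT1, RPL10A and MORF4L2, the cluster was longer even than the longest annotated spliced transcript. The CEP72 cluster spanned 2782 nt against 2434 nt of transcript, and the RPL10A cluster 1794 nt against 1069 nt. At the other end, the NUMA1 cluster of 3122 nt came close to the longest NUMA1 exon of 3366 nt, and the ASPM cluster of 3643 nt stayed below the 4755 nt of its own. The named coding genes had a median longest exon of 3269 nt, against 1753 nt for the 19969 coding genes in GENCODE. An exon of at least 1987 nt, the median span, was present in 29 of the 44 named coding genes (65.9%) and in 44.3% of all. These shares have no test, because the genes were named after the clusters were known.

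**Figure D3:**
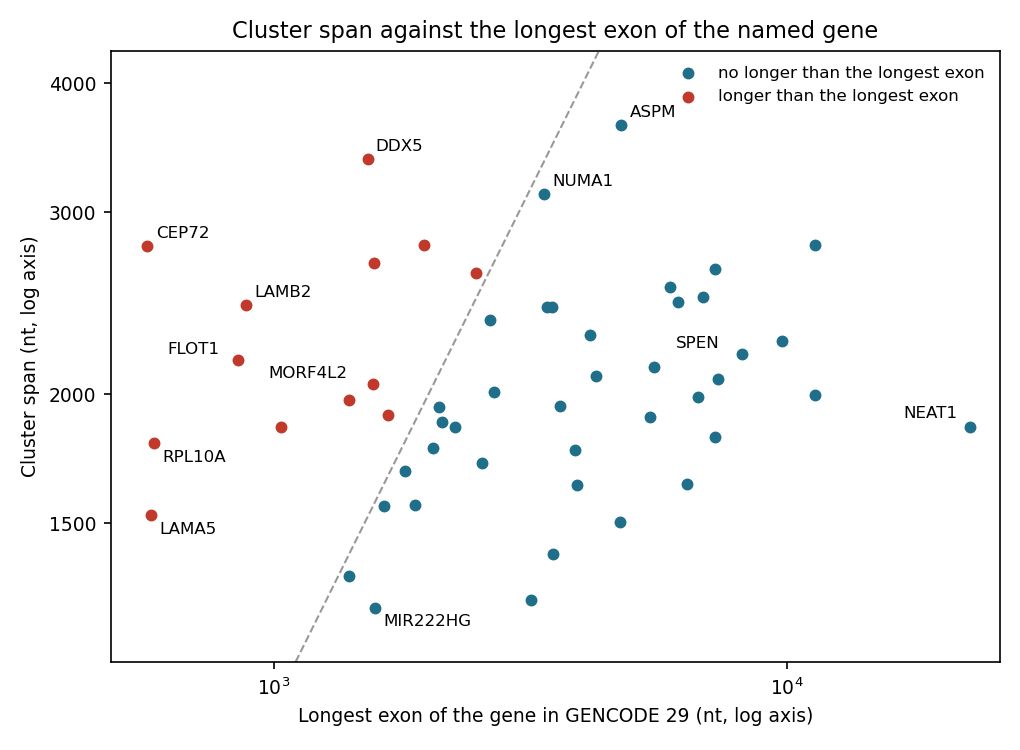
Span of each of the 52 named clusters (nt, log axis) against the longest exon of its gene in GENCODE 29 (nt, log axis); the dashed line marks equal lengths. The 13 red points lie above the line, with CEP72, RPL10A and LAMA5 farthest to the left, and the other 39 lie on the other side.

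Tight clusters were seldom isolated. Only 2 of 69 (2.90%) had no other same-strand region within 10 kb, beside 7 of 84 rows of 5 regions (8.33%) and 13.6% of rows of 2 to 5. The first was the RPL10A cluster, with the next region 41.6 kb upstream and 181 kb downstream, and the other an unnamed minus-strand cluster at chr21:9698455-9700212, with 256 kb upstream and no further region downstream on that strand. With regions of either strand counted, no cluster was isolated. The median distance to the nearest same-strand region was 876 nt, with quartiles of 716 and 1114 nt. In 43 clusters that distance was at most 1 kb, and in 9 it was so on both sides. Joined at 10 kb, the 69 clusters belonged to 61 longer rows, and 34 clusters lay in rows of 20 or more regions.

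Clusters also stood at the ends of such rows. On the upstream side 14 of the 69 clusters had no same-strand region within 10 kb, and on the downstream side 10, counting the chromosome 21 cluster. The first group held clusters that open a row, at SON (1882 kb empty upstream), WDR26 (968 kb), HNRNPA1 (800 kb), HNRNPH3 (458 kb), MORF4L2 (221 kb), C9orf3 (74.4 kb), DDX5 (31.9 kb), CD59 (22.3 kb), ASPM (20.4 kb) and RPL10 (19.1 kb). The next region downstream of these 10 lay 0.567 to 6.82 kb away. The other group included clusters that close a row, at TIMP3 (2426 kb empty downstream), ERRFI1 (1334 kb), IQGAP1 (127 kb), MIR222HG (113 kb) and CEP72 (24.9 kb). Their next region upstream lay 0.714 to 7.38 kb away. RPL10A and the unnamed chromosome 21 cluster belonged to both, and the rest of the first group were unnamed. Every row has an upstream and a downstream end, and these counts were not compared with those of smaller rows. No preference for row ends is read from them. Whether the empty stretches hold known sequence in hg19 was not examined.

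**Figure D4:**
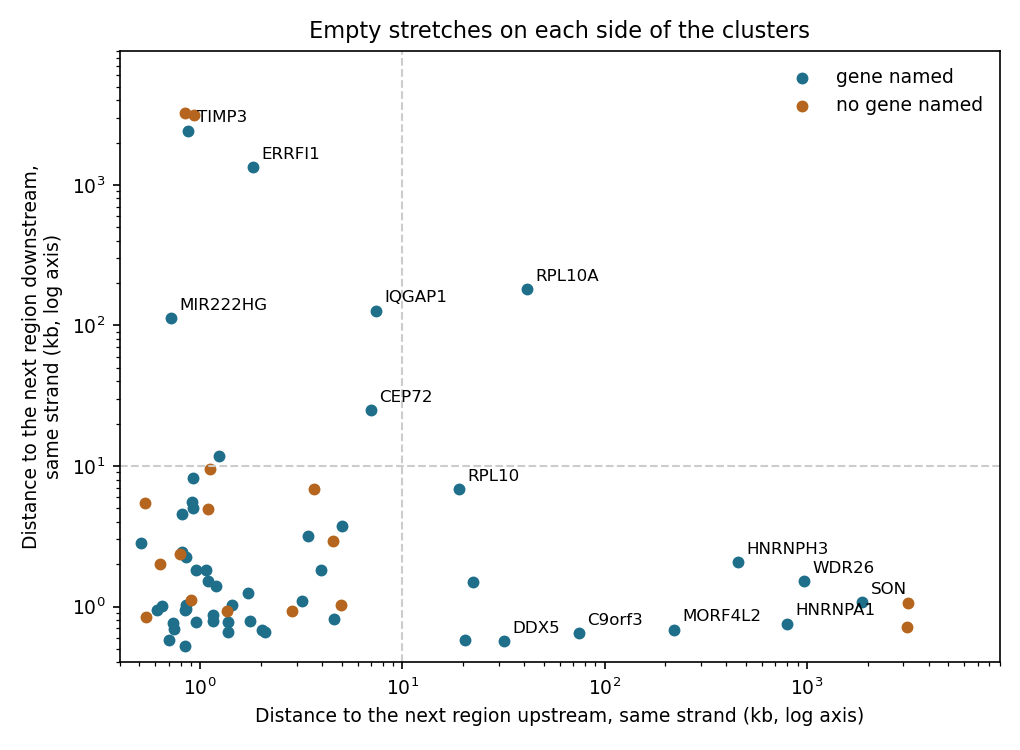
Distance from each cluster to the next same-strand region upstream and downstream (kb, log axes); dashed lines mark 10 kb, and the chromosome 21 cluster without a downstream region is left out. RPL10A is the only point beyond 10 kb on both axes; clusters that open a row lie to the lower right and those that close one to the upper left.

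The rule joined regions of 1 strand and did not look at the other. An opposite-strand region lay within 15 of the 69 spans (21.7%), beside 9 of 84 rows of 5 (10.7%) and 2.91% of the 4395 rows of 2 to 5. Longer spans have more room for such a region, and this was not adjusted for. Among the named clusters, 3 of the 52 (5.77%) held one, at XIST, MKI67 and PLEC, each a single region that overlapped no region of the cluster. Of the 17 unnamed clusters 12 held at least 1 (70.6%), and 11 held 2 or more. The median distance to the nearest opposite-strand region was 26.8 kb for named clusters and 0 for unnamed ones. No test was made, since the clusters were named after their positions were known.

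The cluster with the most regions of all was one of these. It lay at chr2:92317841-92321597 (minus strand) and held 11 regions of 28, 27, 133, 57, 37, 116, 320, 49, 19, 172 and 128 nt, with 6 plus-strand regions in the same interval. It was part of a block of 102 regions, 55 plus and 47 minus, between 92284317 and 92325923, which held 6 tight clusters. The limits are those of the plus-strand row joined at 10 kb. The minus-strand row reached to lower positions and held 52 regions over 56.7 kb. The next same-strand region beyond the block on the side of higher positions was 3.23 Mb away on the plus strand and 3.15 Mb on the minus strand. These distances count positions of hg19, and how many of them have known sequence was not examined. The block borders the centromere of chromosome 2, where satellite repeats are common. The 2 last clusters of the block, from 92323723 to 92325923 on the plus strand and from 92323845 to 92325754 on the minus strand, lay over each other, and their regions shared 266 nt.

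**Figure D5:**
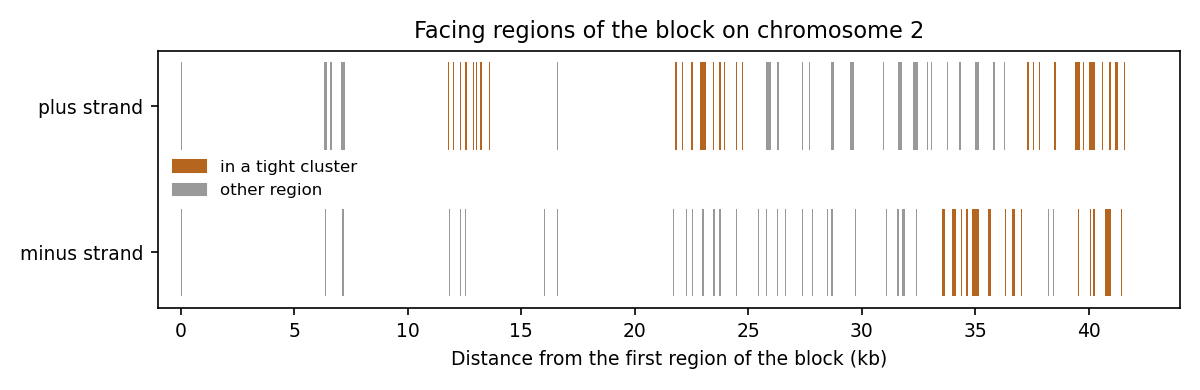
Regions on the plus strand (upper row) and minus strand (lower row) along the chromosome 2 block, by distance from its first region (kb); brown bars are in a tight cluster and grey bars are other regions. Groups of bars stand at the same distances on both strands between 22 and 42 kb.

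The same arrangement appeared on chromosome 6. There 9 plus-strand regions from 58776342 to 58780133 faced a cluster of 6 minus-strand regions from 58778182 to 58779752, beside a stretch of 3.13 Mb without a same-strand region on either strand. How much of that stretch has known sequence in hg19 was not examined. On chromosome 18, 6 plus-strand regions from 109820 to 111444 faced 5 minus-strand regions, and 4 of the 6 were overlapped. The clusters on chromosome 2 from 133027997 and on chromosome 21 from 9698455 held 2 opposite-strand regions each. Near the centromere of chromosome 19, 7 regions from 27735926 to 27737672 held 1. On chromosome 4, 8 narrow regions of 21 to 60 nt from 49324949 to 49327041 held none and had the lowest cover of all clusters, 14.05%.

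The 4 remaining unnamed clusters had a single strand. On chromosome 9, clusters of 9 regions from 69836237 to 69838520 and of 7 from 69842467 to 69845267 belonged to the same row of 75 minus-strand regions, in a part of the chromosome with large duplications. The regions of the first were 37 to 102 nt wide and those of the other 42 to 229 nt. On chromosome 7, 6 regions from 130594101 to 130595852 measured 247, 49, 38, 149, 156 and 147 nt and filled 44.9%. On chromosome 19, 7 regions from 53150084 to 53152512 filled 21.7%. How reads from repeated or duplicated sequence were assigned is not given in the sources used here, and its part in these clusters was not tested.

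Clusters were spread over 22 of 24 chromosomes, and chromosomes 13 and Y held none. On average 1.08% ± 0.848 of a chromosome's regions lay in clusters (SD, n = 24 chromosomes), with the highest share on chromosome 2 (2.63%, 11 clusters), followed by chromosomes 21 (2.54%) and 6 (2.53%, 9 clusters). The chromosome 2 share includes the 6 clusters of the centromere block. Chromosome 1, with the most regions of the list (4441), held 5 clusters and 36 clustered regions (0.811%).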

How the data were processed

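One list of genomic regions, from 2 m6A libraries and 1 IgG library of nuclear RNA, was analysed. The submitters' processing notes name Bowtie2 and hg19; the sources used here do not give the peak caller, its thresholds or the use of the IgG library. The deposited score is 1 for every region, so the start and end that the authors set are all that was measured, with 0 columns for single libraries. Width is end minus start; printed positions count from 1 and include the end. Same-strand regions were joined at 500 nt and rows of 6 or more kept. Upstream and downstream follow the deposited strand, and 1 nt of overlap made an opposite-strand region count as inside. Intervals on shares are 95% Wilson intervals.

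The members and lists were chosen with earlier results of these data known. The rule for named items covered the 20 clusters with the most regions (ties by covered nt) and the gene lists. The other clusters were named too where the locus was known. The gene at 1 cluster is not reported here. Gene and exon lengths came from GENCODE 29 (GRCh38, comprehensive set), and no coordinate was converted. The planned searches for the GGAC motif and for exons at the regions were not run, for want of an hg19 reference. On simulated data, joining found all planted clusters. Software was Python 3.11.15 with matplotlib 3.10.9, scipy 1.17.1, pandas 2.3.3 and numpy 2.4.6.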

Additional observations from a re-analysis of the deposited data

How the results depend on the processing

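Most values moved with the rule, by construction, since distance and number define a cluster. Joining at 300 nt left 15 clusters with 96 regions, a median span of 1560 nt, 35.5% covered, a median width of 70.5 nt, 0% isolated by 10 kb and 51.0% of regions on the minus strand. Joining at 1000 nt gave 268 clusters with 2121 regions, 3214 nt, 17.3%, 51 nt, 9.33% isolated and 67.5% minus. Joining at 250 nt, chosen after seeing the data, left 5 clusters with 34 regions, 2427 nt, 55.5%, 88 nt, 38.2% minus, and 0% isolated or with an opposite-strand region. A minimum of 4 regions gave 365 clusters with 1735 regions, 1264 nt, a width of 51 nt, 7.12% isolated and 10.96% with an opposite-strand region. A minimum of 10 left 2 clusters with 21 regions, 3700 nt, 87 nt, 0% isolated, 50% with an opposite-strand region and 100% minus. Counting both strands, 0% were isolated, and by 5 kb on the own strand 7.25%, against 2.90% in the main setting. Without the 11 clusters that held at least 2 opposite-strand regions, also chosen after seeing the data, 58 clusters with 387 regions were left. Of these clusters 6.90% held an opposite-strand region, a fall set by the choice itself, and 63.3% of regions were minus. Span, cover and width stayed near the main values. In the main setting, 58.7% of clustered regions and 57.4% of the others were minus. In each of these settings the median width of clustered regions was above 45 nt, the median outside the clusters of the main setting. An outside median for each other setting is not given. With GENCODE basic exons, 32.7% of named clusters were longer than the longest exon in place of 25%. At coding genes alone, with the comprehensive exons of the main setting, the share was 28.9%. Merging touching regions changed nothing, because no same-strand regions overlap.

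No paired analysis was possible because no library has values of its own; leaving out a library and a stricter score could not be run for the same reason, and the alternatives for motif and exon were not run without an hg19 reference. With no read counts, the depth behind each region is unknown.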
